A study of Mus musculus with 3 samples.

Results

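The comparison asked which genes still differed from unirradiated skin after irradiation with vitamin D treatment. Its members were the single cells of 2 whole-skin libraries. The first came from C57BL/6 mice that were irradiated with UV and given VD, which was taken to be vitamin D because the series title names it (UV plus vitamin D). The second came from unirradiated C57BL/6 mice given saline (control). A barcode was kept with at least 200 detected genes and at most 20% of its counts from mitochondrially encoded genes. This left 6199 UV plus vitamin D cells and 9078 control cells, 15277 in all, of the 20834 barcodes in the series. Another library, from irradiated C57BL/6 mice given saline (UV, 5451 cells), served only to separate differences that irradiated skin without vitamin D also had from those it did not. The animals were 9 weeks old; how many gave skin to a library, the UV dose, the dose and route of VD and the time of sampling are not given in the sources used here.

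Each group had 1 library. Every difference therefore describes these libraries, no difference was tested across animals, and each interval covers counting error only. Skin covers the body with a layered epithelium. Basal keratinocytes hold it to the dermis and divide; cells leaving that layer switch keratins, and in the granular layer they make filaggrin, loricrin and late cornified envelope proteins, which are cross-linked into the barrier of dead cells at the surface. Ultraviolet light damages DNA in these cells, evokes inflammation and thickens the epidermis. Keratinocytes can make vitamin D, convert it to its active form and respond to it through the vitamin D receptor, a transcription factor that also takes part in their differentiation.

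Cells were called epidermal when Krt1, Krt10, Krt5 and Krt14 together made up at least 0.5% of their counts. These 4 keratins were used by the rule and are no result. Epidermal cells were 86.5% of control cells (7855 cells, exact binomial 95% interval 85.8% to 87.2%), 60.2% of UV cells (3284 cells, 58.9% to 61.5%) and 82.7% of UV plus vitamin D cells (5124 cells, 81.7% to 83.6%). The control and UV plus vitamin D intervals, which cover counting error only, did not overlap, and both lay above UV. This order depended on the limit. At a limit of 2% UV was highest, at 23.8% against 17.0% in control and 13.4% in UV plus vitamin D. The remaining cells numbered 1223, 2167 and 1075. Cells with more Krt5 and Krt14 than Krt1 and Krt10 counts (basal range) made up 19.0% of epidermal cells in control, 22.7% in UV and 13.9% in UV plus vitamin D. Close to the 0.5% limit, at 0.4% to 0.6%, lay 584 control and 315 UV plus vitamin D cells.

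The libraries also differed in measures that bear on every value below. The median epidermal cell held 7173 counts in control, 10176.5 in UV and 9781.5 in UV plus vitamin D. A single rRNA gene took 11.4%, 10.4% and 7.22% of all counts, and haemoglobin genes 0.0808%, 0.131% and 0.193%. The kept cells held 79450666, 50610389 and 69126823 counts. The control and UV plus vitamin D tables shared 66 barcodes among kept cells. The part of these differences in the results was not tested beyond the alternatives named with them.

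Of 13579 genes with at least 20 counts over both libraries, 126 (0.928%) were at least 1.5-fold higher in UV plus vitamin D and 101 (0.744%) at least 1.5-fold lower. Genes past 2-fold numbered 19 and 18. The fold was taken on the log2 scale of CPM (counts scaled to a fixed total for each compartment) plus a pseudocount of 10, which shrinks low genes. The median log2 ratio of all genes was -0.01. Leaving rRNA, mitochondrial and haemoglobin genes out of the total gave 106 higher and 144 lower genes, so that the higher genes went from 55.5% to 42.4% of those called. With every cell given the same weight the counts were 166 and 91, a share of 64.6%, and with cells thinned to 2500 counts 187 and 88, a share of 68.0%. A pseudocount of 1 gave 345 higher and 497 lower genes, a share of 41.0%.

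UV skin had 77 of the 126 higher genes and 44 of the 101 lower genes past 1.5-fold the same way. Within 1.5-fold of control in UV were 49 higher and 55 lower genes, called treatment-only below. Some of them lay close to that limit in UV, such as Crct1 and Btg2, both at a UV log2 ratio of 0.58. Both ratios use the same control library, so a chance value in control moves both, and the shared counts support nothing about UV by themselves. Aqp3, a water and glycerol channel, and Krt79, a keratin of the hair follicle canal, were lower in UV plus vitamin D and past 1.5-fold higher in UV; they were singled out after their values were seen. Aqp3 was at 197 CPM in control, 303 in UV and 109 in UV plus vitamin D, and Krt79 at 116, 557 and 50.9 CPM.

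**Figure D1:**
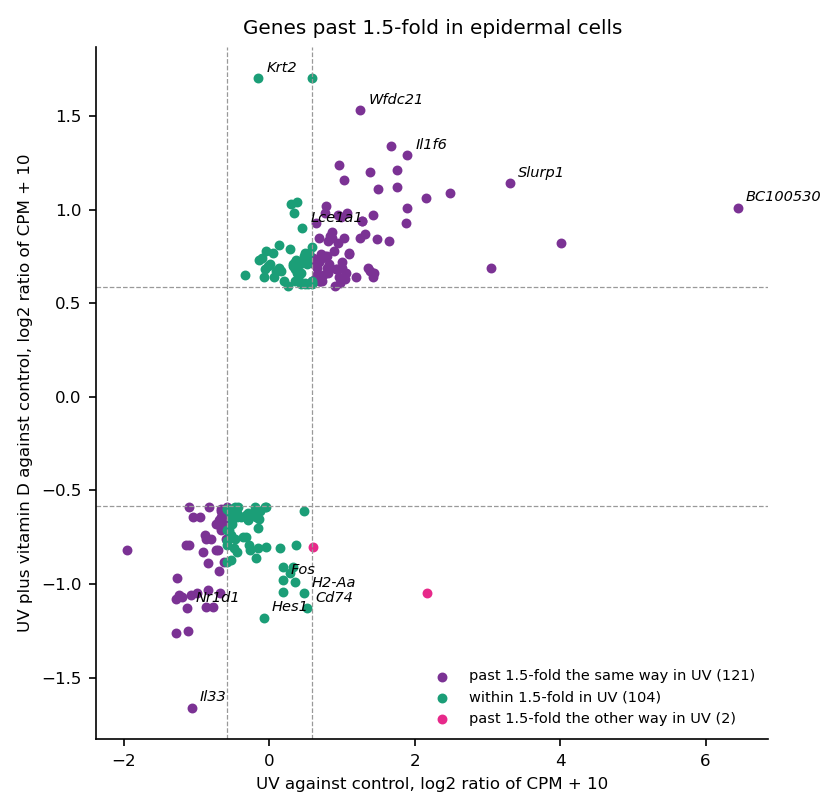
Log2 ratios of CPM + 10 of the 227 genes past 1.5-fold in epidermal cells, UV plus vitamin D against control on the vertical axis and UV against control on the horizontal axis, 1 point a gene; dashed lines mark 1.5-fold. Of these genes 121 were past 1.5-fold the same way in UV, 104 were within it and 2 were past it the other way; both axes share the control library.

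Late differentiation genes made up the largest group of higher genes. Of 40 measured members of the cornified envelope list, 16 were higher and 0 lower, with a median log2 ratio of 0.53 against -0.01 for all genes; the median was 0.42 in UV. Of these 16 genes 8 were shared with UV and 8 were treatment-only. Position on the genome shows the same group. Among the 125 higher genes placed on the mouse annotation by symbol, 21 (16.8%) lay between S100a1 and S100a11 on chromosome 3, the interval of the epidermal differentiation complex, where 67 of 13418 placed genes (0.499%) lie. Of the lower genes 1 of 101 lay there.

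Krt2, the keratin of the upper layers of interfollicular epidermis, had the largest log2 ratio of the named genes in epidermal cells. It was at 15.7 CPM in control, 13 in UV and 73.5 in UV plus vitamin D, 4.67-fold above control (interval 4.37 to 4.99). UV and control were close to each other, and UV plus vitamin D stood above both. Krt2 had a count in 2.25% of control, 1.67% of UV and 6.67% of UV plus vitamin D epidermal cells after each cell was thinned to 2500 counts, and in 6.15%, 5.6% and 14.6% unthinned. In cells of the fibroblast gate described below, which should lack it, 0 of 175, 1 of 420 and 0 of 162 thinned cells had a Krt2 count; a count of 0 allows up to 1.71% and 1.85%. The fibroblast cells' median depths were 4568, 6276 and 4865 counts.

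The late cornified envelope genes, short proteins cross-linked into the envelope, differed in their UV level. Lce1a1 was at 89.9 CPM in control, 127 in UV and 177 in UV plus vitamin D, and Lce1c at 158, 195 and 280 CPM. Lce1m was even lower in UV (194 CPM) than in control (248 CPM), against 396 CPM in UV plus vitamin D. These were treatment-only, as were Lce1a2, Lce1b, Lce1l and Lce1k, the last with 20.2% of its counts from 1 cell. Lce1f, in contrast, was at 52.8 CPM in control, 269 in UV and 121 in UV plus vitamin D, and Lce1g at 1.62, 33.2 and 13.4 CPM. In both of these genes UV was the highest library. Lce1d, at 34.5, 61.3 and 70.1 CPM, was shared and highest in UV plus vitamin D. The Lce1 genes are near-identical neighbours, and reads that fit several of them may have been split between them. Crct1, a cysteine-rich protein encoded in the same complex, was treatment-only at 694, 1045 and 1213 CPM. Its UV log2 ratio, 0.58, was just within 1.5-fold. It had a count in 16.6%, 14.5% and 32.7% of thinned fibroblast gate cells. Lce1c had a count in 9.69%, 13.2% and 18.1% of thinned epidermal cells. Its shares were close to these in thinned fibroblast gate cells, at 9.14%, 11.4% and 22.8%. For Lce1f they were 4.99%, 13.9% and 9.48% in epidermal cells and 5.14%, 11.7% and 11.7% in fibroblast gate cells. Lce1a1 had a count in 5.71%, 9.52% and 20.4% of thinned fibroblast gate cells. The part of RNA from outside the cell in the Lce1 and Crct1 values was not tested.

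Structural proteins of the granular layer were intermediate. Flg, which encodes profilaggrin, was at 28.5 CPM in control, 610 in UV and 57.8 in UV plus vitamin D. Hrnr, a filaggrin-like protein, was at 199, 758 and 387 CPM, and Lor, the main envelope protein loricrin, at 413, 1036 and 766 CPM. For all of these UV plus vitamin D lay between control and UV. Ivl, which encodes the early envelope protein involucrin, was at 940, 1411 and 1370 CPM, a log2 ratio of 0.54 that did not reach 1.5-fold. The list median was 0.69 in basal-range and 0.46 in suprabasal-range cells. A list of 32 measured genes of barrier lipid synthesis had 1 higher gene, the acid sphingomyelinase Smpd1 (46.3, 119 and 77.8 CPM), and 0 lower.

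The other leading higher genes had varied roles. Wfdc21, a small secreted protein with a whey acidic protein core, was at 525 CPM in control, 1267 in UV and 1541 in UV plus vitamin D (2.93-fold, 2.90 to 2.97). Il1f6, the cytokine interleukin-36 alpha, was at 14, 79.2 and 48.9 CPM (3.48-fold, 3.24 to 3.75). Slurp1, a secreted Ly6 family protein that acts on nicotinic receptors, was at 43.4, 518 and 108 CPM, and its relative Slurp2 at 36.5, 251 and 88.7 CPM. F3, the tissue factor that starts coagulation, was at 274, 730 and 643 CPM. Calml3, a calmodulin-like protein of epithelia, was at 143, 508 and 344 CPM. Except for Wfdc21, these genes were highest in UV. Further leading genes were also shared: Ide, the insulin-degrading enzyme (138, 278 and 341 CPM), Phlda1 (108, 231 and 253 CPM), Rbp2, a retinol-binding protein (57.7, 220 and 137 CPM), and Agpat5, an acyltransferase of phospholipid synthesis (126, 374 and 282 CPM).

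**Figure D2:**
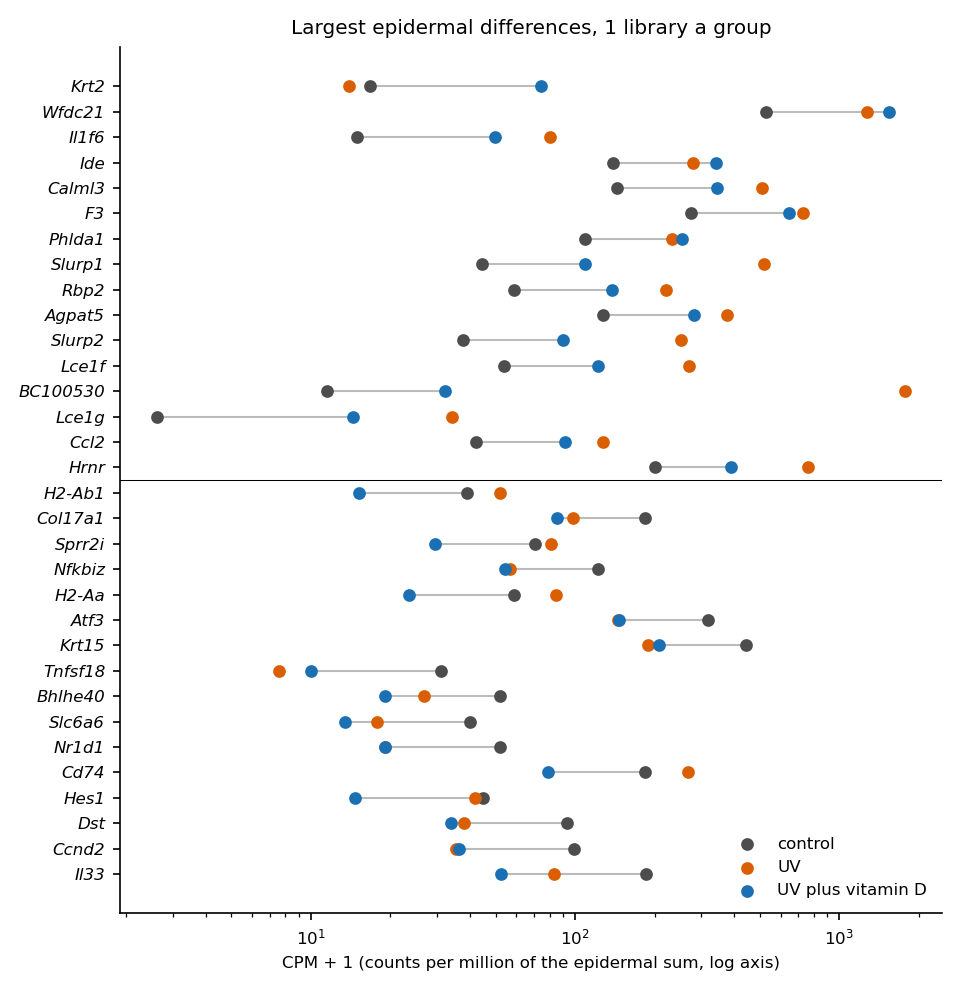
CPM + 1 on a log axis in the epidermal sum of each library for the 16 named genes with the highest and the 16 with the lowest log2 ratio, 1 point a library; grey lines join control and UV plus vitamin D. Krt2 and Hes1 lie near control in UV and away from it in UV plus vitamin D, whereas Nr1d1 lies at 18.0 CPM in both irradiated libraries.

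Alarmins and stress genes, which mark injured epidermis, were mostly near control. Of 27 measured members 4 were higher and 2 lower, and the median was 0.09, against 0.67 in UV with 14 higher. BC100530, a stefin A family gene with near-identical copies, was at 10.5 CPM in control, 1765 in UV and 31.3 in UV plus vitamin D. Sprr1b, a cross-bridging envelope precursor, was at 405, 3423 and 661 CPM. Sprr2h was treatment-only at 697, 1006 and 1165 CPM, with a UV log2 ratio of 0.52. Its neighbour Sprr2i went the other way at 69.2, 80.3 and 28.4 CPM, and Krt16, a keratin of wounded and hyperproliferative epidermis, was at 587, 814 and 381 CPM. Both of the last 2 were below control only in the UV plus vitamin D library.

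Il33, the alarmin cytokine interleukin-33 stored in keratinocyte nuclei, was the named gene with the lowest log2 ratio in epidermal cells, -1.66. It was at 184 CPM in control, 82.4 in UV and 51.5 in UV plus vitamin D, 3.57-fold lower than control (3.43 to 3.71). UV plus vitamin D was the lowest library and control the highest. Suprabasal-range cells gave a log2 ratio of -1.83 and basal-range cells -0.64. Other inflammatory genes were mixed: of 43 measured, 2 were higher and 6 lower (median log2 ratio -0.01). Nfkbia and Nfkbiz, both feedback regulators of NF-kB, were lower and shared, at 2369, 1061 and 1363 CPM and at 121, 55.5 and 53.2 CPM. Ptgs2, the inducible cyclooxygenase, was at 61.4, 39.3 and 29.0 CPM. Ccl27a, the skin chemokine that attracts T cells, was at 182, 118 and 94.4 CPM. Ccl2, a monocyte chemokine, was higher at 41.3, 127 and 90.3 CPM. It had a count in 4.06%, 11.3% and 6.75% of thinned epidermal cells, against 81.7%, 76.2% and 93.2% of thinned fibroblast gate cells. The part of fibroblast RNA in its epidermal values was not tested.

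Several genes of the basal layer were lower than control in both irradiated libraries. Of 17 measured adhesion genes 0 were higher and 3 lower (median -0.30). Dst, which anchors keratin to hemidesmosomes, was at 92.0 CPM in control, 37.0 in UV and 33.0 in UV plus vitamin D. Col17a1, the hemidesmosomal collagen, was at 183, 97.4 and 84.3 CPM, and Itga6, an integrin of the same structure, at 102, 63.6 and 58.5 CPM. Krt15, a keratin of basal and follicle stem cells, was at 444, 187 and 206 CPM. Ccnd2, a cyclin of the first growth phase, was at 98.4, 34.3 and 35.3 CPM. Within basal-range cells the log2 ratio of Col17a1 was -0.24, of Itga6 -0.03 and of Krt15 -0.30, while suprabasal-range cells gave -1.28, -0.79 and -1.37. Dst, at -0.62 in basal-range and -1.30 in suprabasal-range cells, and Ccnd2, at -0.77 and -1.16, were past 1.5-fold lower in both ranges. With both ranges weighted to their control shares the list median was -0.07, and Itga6 was at -0.41, no longer past 1.5-fold. Dst (-1.02), Ccnd2 (-0.93), Col17a1 (-0.65) and Krt15 (-0.64) were still past it. Lower genes then numbered 67 instead of 101. At an epidermal limit of 2% Dst (-0.67) and Ccnd2 (-0.74) were past 1.5-fold, whereas Col17a1, Itga6 and Krt15 were not.

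Igfbp3, which binds insulin-like growth factors and is a known vitamin D target in other cells, also depended on the range. It was at 443 CPM in control, 107 in UV and 247 in UV plus vitamin D, with a log2 ratio of -0.82. UV plus vitamin D lay between the others. The ratio was 0.17 in basal-range and -1.05 in suprabasal-range cells, and -0.58 with the ranges weighted to control shares, just within 1.5-fold.

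**Figure D3:**
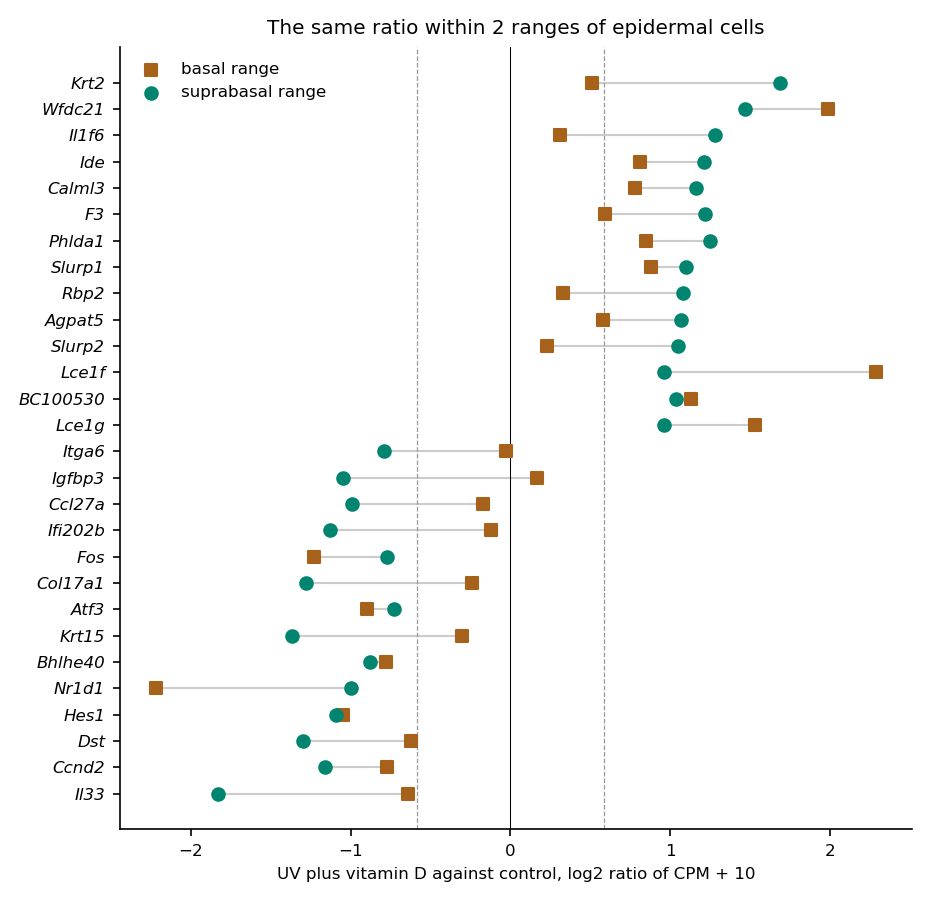
Log2 ratio of CPM + 10, UV plus vitamin D against control, for 28 genes within basal-range (squares) and suprabasal-range (circles) epidermal cells; dashed lines mark 1.5-fold. Hes1 lies near -1 in both ranges, whereas Itga6, Igfbp3 and Ccl27a lie past 1.5-fold only in the suprabasal range.

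Hes1, a repressor induced by Notch signalling, was the named treatment-only gene with the lowest log2 ratio in epidermal cells, -1.18. It was at 43.8 CPM in control, 40.8 in UV and 13.7 in UV plus vitamin D, 3.19-fold lower (2.96 to 3.45). The UV library was close to control, and UV plus vitamin D was below both. The log2 ratio was -1.05 in basal-range and -1.09 in suprabasal-range cells. Immediate early genes, which respond within minutes to stress and to tissue dissociation, were split, with 4 of 30 higher and 4 lower and a median of 0.07. Fos was treatment-only at 205, 233 and 99.2 CPM, as was Jun at 258, 231 and 161 CPM. Atf3 was shared at 316, 144 and 146 CPM, and Fosb at 101, 58.1 and 53 CPM. Egr2 was higher at 57.8, 95.9 and 120 CPM. Ligands of the EGF receptor also differed in direction: Ereg was at 275, 390 and 474 CPM and Epgn at 92.0, 122 and 48.9 CPM.

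The circadian clock list had 5 lower and 0 higher genes among 21 measured, all shared with UV. In the clock, CLOCK and BMAL1 (the product of Arntl) activate genes through E-boxes with the letters CACGTG. Among these are the repressors of the Per and Cry families and the Nr1d receptors, and the Nr1d receptors repress Arntl. Nr1d1 was at 51.1 CPM in control and 18.0 in both irradiated libraries, and Nr1d2 at 22.6, 11 and 10.3 CPM. The PAR leucine zipper genes Tef (14.6, 3.07 and 3.78 CPM) and Hlf (11.7, 4.38 and 4.39 CPM) had the same order, control above both others. Bhlhe40, a repressor of the same loop, was at 51.1, 25.8 and 18.1 CPM. Ciart, another repressor, was at 7.22, 0.575 and 1.61 CPM and Per1 at 22, 16.9 and 14.4 CPM, neither past 1.5-fold with the pseudocount. Arntl ran the other way at 39.4, 54.2 and 62.6 CPM, a log2 ratio of 0.56, also within 1.5-fold. Cry1 did not have this order, at 37.7, 27.2 and 42.4 CPM. The list median was -0.15 in UV plus vitamin D and -0.18 in UV. Time of day is not in the labels, so the hour and the treatment cannot be told apart.

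Upstream sequences are shown for the clock genes with the CACGTG word described above, and of the 4 shown Tef alone was past 1.5-fold. They come from RefSeq (GRCm38.p6) and hold the 250 bases before a start site, 5′ to 3′ on the gene's strand, with CACGTG in capitals. The windows are chr3:95882229-95882478 on the minus strand for Ciart, chr15:81802423-81802672 on the plus strand for Tef, chr11:69098699-69098948 on the plus strand for Per1 and chr10:85185055-85185304 on the minus strand for Cry1. Each lies directly before a RefSeq start of the named gene.
Ciart: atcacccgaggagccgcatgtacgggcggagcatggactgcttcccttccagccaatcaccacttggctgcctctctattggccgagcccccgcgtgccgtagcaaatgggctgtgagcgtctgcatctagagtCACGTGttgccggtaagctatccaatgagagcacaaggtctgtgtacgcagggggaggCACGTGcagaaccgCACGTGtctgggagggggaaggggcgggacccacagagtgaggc
Tef: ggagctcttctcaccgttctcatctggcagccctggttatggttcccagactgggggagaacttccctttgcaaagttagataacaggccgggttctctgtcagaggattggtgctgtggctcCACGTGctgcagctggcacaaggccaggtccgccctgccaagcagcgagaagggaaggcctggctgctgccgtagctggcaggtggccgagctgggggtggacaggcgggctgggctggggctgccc
Per1: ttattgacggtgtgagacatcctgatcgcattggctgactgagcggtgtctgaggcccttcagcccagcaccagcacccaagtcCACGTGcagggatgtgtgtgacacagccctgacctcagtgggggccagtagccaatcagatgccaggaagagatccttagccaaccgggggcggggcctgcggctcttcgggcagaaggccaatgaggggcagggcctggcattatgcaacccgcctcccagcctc
Cry1: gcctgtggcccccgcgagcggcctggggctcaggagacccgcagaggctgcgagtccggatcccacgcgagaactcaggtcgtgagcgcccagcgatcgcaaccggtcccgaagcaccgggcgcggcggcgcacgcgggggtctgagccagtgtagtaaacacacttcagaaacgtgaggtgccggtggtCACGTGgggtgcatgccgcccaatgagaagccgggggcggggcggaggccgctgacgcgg
Ciart held 3 copies, whose first bases lie 116, 58 and 44 bases before the start, and Tef, Per1 and Cry1 1 each, at 127, 166 and 60 bases. The word reads the same on both strands. It stood in the windows of 5 of the 17 clock genes matched of 21 listed (Bhlhe41 was the fifth), in 6.02% of all 32851 windows, and in 9.71% of the 9647 measured genes matched. Cry1 holds the word and was not lower, so the word and the direction did not go together in every gene. A match is a description of letters, not a shown binding site.

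Some class II antigen presentation genes were lower: of 11 measured 4 were lower and 0 higher, all treatment-only. Cd74, the class II chaperone, was at 183 CPM in control, 267 in UV and 78.3 in UV plus vitamin D. H2-Aa was at 57.5, 83.8 and 22.5 CPM and H2-Ab1 at 37.9, 51.0 and 14.2 CPM. Class II genes are made mainly by immune cells. Cd74 had a count in 6.17% of control, 21.6% of UV and 4.92% of UV plus vitamin D epidermal cells after thinning. In thinned fibroblast gate cells the shares were close to these, at 6.29%, 20.5% and 4.32%. For H2-Aa they were 2.84%, 8.07% and 1.76% in epidermal cells and 1.71%, 6.90% and 0% in fibroblast gate cells. The part of RNA from outside the cell in the class II values was not tested. Of the 18 macrophage, monocyte and dendritic cell markers, the 14 that are not class II genes summed to 52 CPM in control, 192 in UV and 36.2 in UV plus vitamin D in epidermal cells. The 5 Langerhans cell markers summed to 517, 507 and 554 CPM, with 0 of them past 1.5-fold higher than control in UV plus vitamin D and 1 lower. The part of immune cells in the class II values was not tested either. Leaving out the 80 control and 57 UV plus vitamin D epidermal cells with at least 1% of counts from another lineage's markers, class II genes among them, put the log2 ratio of Cd74 at -0.30 instead of -1.13, and none of the 4 genes then passed 1.5-fold. That filter reads the genes it is applied to. With class II genes taken out of the marker lists, a choice made after seeing the data, 42 and 47 cells were left out, the log2 ratio of Cd74 was -1.24, and all 4 passed 1.5-fold. Of 18 class I and immunoproteasome genes 1 was higher, H2-Q6 at 21.0, 22.1 and 42.7 CPM, and 0 lower (median 0.18).

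In epidermal cells most genes of the vitamin D list were within 1.5-fold of control: of 23 measured, 0 were higher and 1, Igfbp3, lower (median 0.07). In the other cells 4 of 20 were higher (Alox12b, Casp14, Dhcr7 and Orm1) and 2 lower (Igfbp3 and Vdr), against 3.84% and 6.28% of all genes there. Casp14 is also in the cornified envelope list and Alox12b in the barrier lipid list. Granular and cornifying cells made up 7.52% of these cells in control and 16.7% in UV plus vitamin D. Within the suprabasal gate described below 5 of 18 were higher (Alox12b, Casp14, Dhcr7, Orm1 and Slc37a2) and 2 lower (Igfbp3 and Vdr). Of all genes in that gate 5.32% were higher and 7.32% lower. In the granular and cornifying gate 0 of 11 were higher and 0 lower. The part of cell make-up in the pooled calls was not tested. At a keratin limit of 2% Casp14 was no longer past 1.5-fold. In epidermal cells Vdr, the receptor, was at 65.9 CPM in control, 47.4 in UV and 52.2 in UV plus vitamin D. Rxra, its partner, was at 18.6, 17.5 and 18.1 CPM. Cyp24a1, the inactivating enzyme and the best known target, had 0, 1 and 0 counts in the 3 epidermal sums, so no fold was formed. Cdkn1a, the cell-cycle inhibitor p21 that p53 induces after DNA damage, was at 2490, 1702 and 2467 CPM, a log2 ratio of -0.01. Of 29 measured p53 and DNA damage genes 1 was higher, Btg2 at 404, 608 and 621 CPM. Cell cycle genes (0 higher and 2 lower of 37), interferon response genes (0 and 1 of 39) and collagen and dermal matrix genes (0 and 0 of 39) were near control as well. In UV 8 interferon and 11 matrix genes were past 1.5-fold higher in the same cells, where the fibroblast markers summed to 287 CPM against 77.8 in control and 92.8 in UV plus vitamin D.

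**Figure D4:**
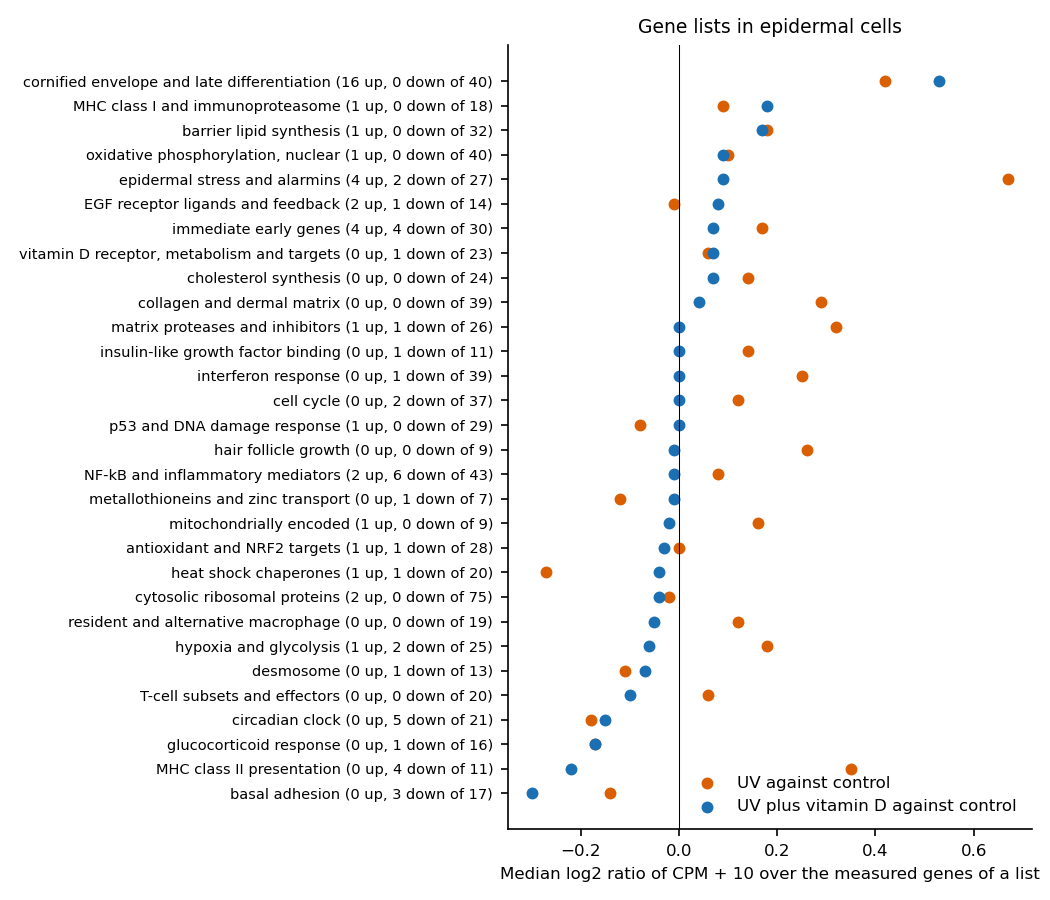
Median log2 ratio of CPM + 10 over the measured genes of each list in epidermal cells, UV plus vitamin D (blue) and UV (orange) against the same control; the number of genes higher and lower in UV plus vitamin D stands beside each name. The cornified envelope list is highest at 0.53 and the basal adhesion list lowest at -0.30; the stress and alarmin list is at 0.09, against 0.67 in UV.

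In some genes both irradiated libraries differed from the 1 control library by a like amount, and these genes were singled out after their values were seen. Slc15a2, a peptide transporter, had 0 counts in the control epidermal sum, 276 in UV and 470 in UV plus vitamin D, at least 187-fold higher in UV plus vitamin D than in control, with a floor of 3 counts for the control sum. The exact counting interval starts at 152-fold. Cox5a, a subunit of respiratory complex IV, was at 23.3, 50.2 and 50.1 CPM, the 1 higher gene among 40 nuclear genes of oxidative phosphorylation with a median of 0.09. Vasn was at 32.3, 65.3 and 66.7 CPM. For Slc15a2, at 7.56 CPM in UV and 7.79 in UV plus vitamin D, as for the other two, the irradiated libraries lay close to each other. The 3 tables list 22129, 23944 and 21814 genes, and no source used here says whether they were made with one annotation, so a difference of the control table and of the treatment cannot be told apart for these genes. Wfdc18 reached a log2 ratio of 1.70, but 22.9% of its counts came from 1 cell.

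The cells outside the epidermal limit were largely keratinocytes too. Each was assigned to the lineage whose markers took the largest share of its counts, if at least 1%. Suprabasal keratinocyte markers claimed 494 of 1223 control cells (40.4%), 114 of 2167 UV cells (5.26%) and 470 of 1075 UV plus vitamin D cells (43.7%). Granular and cornifying markers claimed 7.52% in control, 3.28% in UV and 16.7% in UV plus vitamin D (92, 71 and 179 cells). Together with the hair follicle markers, keratinocyte gates held 62.6%, 19.0% and 69.3% of these cells. Fibroblast markers claimed 175, 420 and 162 cells (14.3%, 19.4% and 15.1%). Macrophage, monocyte and dendritic cell markers claimed 138, 590 and 93 cells (11.3%, 27.2% and 8.65%), and T and NK cell markers 6, 70 and 15 cells. For these 3 gates UV plus vitamin D was nearer to control than UV was. Sebocyte markers (1.88%, 2.08% and 1.40%) and erythroid markers (0.409%, 0.461% and 1.49%) had UV nearer to control. The limit leaves out keratinocytes rich in the 4 keratins, so the shares are of this remainder only. As in the epidermis, erythroid markers were higher in UV plus vitamin D, at 7100 summed CPM against 1848 in control.

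**Figure D5:**
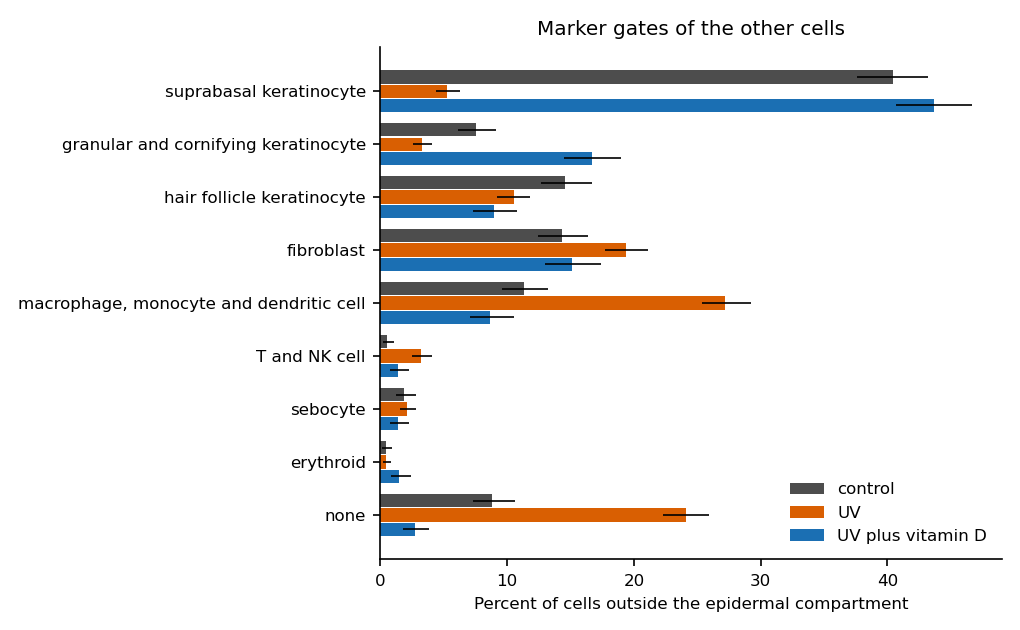
Percent of the cells outside the epidermal limit in each marker gate, with exact binomial 95% intervals as error bars, 1 library a bar; gates with few cells in all libraries are left out. The granular and cornifying share is 16.7% in UV plus vitamin D against 7.52% in control, and the macrophage, monocyte and dendritic cell share 8.65% against 11.3%.

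The median of these cells held 4925 counts in control and 7014 in UV plus vitamin D. Summed over all of them, 418 of 10884 genes (3.84%) were higher and 683 (6.28%) lower. Only 44 higher and 96 lower genes were shared with UV, while 164 higher and 127 lower genes were past 1.5-fold the opposite way there. This split depended on which cells each library held. Keratinocyte gates held 19.0% of these cells in UV, against 62.6% in control and 69.3% in UV plus vitamin D. With gates weighted to their control shares 257 genes were shared and 197 treatment-only, instead of 140 and 670. The median of all genes was -0.11, so ratios here are read against that value. The higher genes were 38.0% of those called. They were 20.2% without rRNA, mitochondrial and haemoglobin genes in the total (310 higher, 1224 lower), 62.0% with the median set to 0 (594 and 364), 57.1% with cells weighted the same (530 and 398), and 54.2% with gates weighted to their control shares (254 and 215), an alternative chosen after seeing the data. The direction of the whole compartment therefore depends on the scaling and on which cells it holds. Of 10394 genes measured in both compartments 76 were higher in both, 70 lower in both and 0 past 1.5-fold in opposite directions.

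The pooled cells repeated the cornified pattern, with 27 of 39 list members higher, 1 lower and a median of 0.89. Lce1a1 was at 4611 CPM in control, 3111 in UV and 10304 in UV plus vitamin D. With gates weighted to control shares the median was 0.35 and the log2 ratio of Lce1a1 went from 1.16 to 0.42, no longer past 1.5-fold. The granular and cornifying gate was also larger, 16.7% of these cells against 7.52% in control. Barrier lipid genes had 11 higher and 3 lower of 34, among them Elovl1, which elongates very long fatty acids (506, 238 and 991 CPM), and Sdr9c7, which acts on barrier ceramides (193, 91.8 and 412 CPM). Wfdc21 was at 2454, 1190 and 7448 CPM and Scgb1a1, a secretoglobin, at 236, 106 and 823 CPM. Within the suprabasal gate, however, Scgb1a1 was at 333, 710 and 1238 CPM, so that UV lay above control there. That gate held 40.4% of these cells in control and 5.26% in UV. The part of this difference in the low pooled UV values was not tested. Ribosomal protein genes were lower in the pooled sum, 11 of 74 with a median of -0.44. By gate the median was -0.49 in suprabasal and -0.23 in granular and cornifying cells. It was 0.04 in the fibroblast and hair follicle gates and 0.06 in the macrophage, monocyte and dendritic cell gate. Ifi202b, an interferon-induced DNA sensor, was at 1049, 79.1 and 234 CPM (4.49-fold lower, 4.27 to 4.71), and Clca3a2, a chloride channel regulator, at 353, 61.2 and 97.1 CPM.

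Within gates, which hold few counts, a gene was called only when its counting interval lay wholly past 1.5-fold and the higher library had at least 50 counts. Marker genes of a gate are no result in it. The suprabasal gate, added after seeing the data, had 427 of 8033 genes higher (5.32%) and 588 lower (7.32%). Of 36 measured cornified genes 25 were higher and 0 lower (median 0.92). Slc46a2 was at 80.7, 305 and 354 CPM and Il1f6 at 158, 1186 and 562 CPM. Ifi202b (1726, 234 and 333 CPM), Ccl27a (263, 95.1 and 55.6 CPM) and Il33 (212, 30.8 and 48.6 CPM) were lower. Il33 and Ccl27a were thus also below control in keratinocytes that the epidermal limit left out. Krt16, a stress keratin, was at 630, 231 and 184 CPM. The gate's median cell held 5174.5, 9859.5 and 9232.5 counts.

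In the granular and cornifying gate 21 of 3525 genes (0.596%) were higher and 37 (1.05%) lower. By the fold alone, as used for the pooled cells, 88 were higher and 388 lower. The gate held 1098838 counts in control and 2232007 in UV plus vitamin D, against 3048607 and 4280276 in the suprabasal gate. Its cornified list, without the gate's own markers, had 1 higher and 3 lower of 24 and a median of -0.05. Fos was at 193, 102 and 74.8 CPM, and Map2 at 97.4, 37.8 and 36.3 CPM. Arl5c was higher at 228, 516 and 587 CPM. The hair follicle gate had 30 of 4868 genes higher (0.616%) and 12 lower (0.247%). Ly6e, a Ly6 family surface protein that interferons induce, was at 83.1, 250 and 236 CPM. Tspan8 was lower at 168, 54.6 and 61.8 CPM, as was Nfatc1, a factor that keeps follicle stem cells quiescent, at 96.3, 59.3 and 38.2 CPM.

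The fibroblast gate had 71 of 5332 genes higher (1.33%) and 27 lower (0.506%). Il1rl1, the receptor of interleukin-33, was at 97.2 CPM in control, 389 in UV and 791 in UV plus vitamin D (8.14-fold, 6.47 to 10.3). Il33 itself was higher in this gate, at 153, 157 and 399 CPM, the opposite of its direction in epidermal cells. Inflammatory mediators followed: 10 of 34 were higher and 0 lower, and their median was 0.34 against 0.07 for all genes of the gate. The monocyte chemokine Ccl2 was at 26090, 18968 and 40304 CPM, the neutrophil chemokine Cxcl1 at 18603, 10037 and 30645 CPM, and Il6 at 3287, 2037 and 5452 CPM. For these 3 genes UV was the lowest library and UV plus vitamin D the highest.

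Interferon genes in fibroblasts had 6 higher and 0 lower of 28. Ifit1 was at 19.9, 174 and 231 CPM, with 44.9% of its counts from 1 cell. Mgp, an inhibitor of calcification, was at 16.4, 119 and 165 CPM. Gal, the neuropeptide galanin, was at 148, 53.2 and 12.8 CPM, and C1qtnf3, an adipokine of the complement-related family, at 101, 221 and 16.3 CPM. Collagen and matrix genes other than the markers had 3 lower of 33, including Mfap4, a microfibril protein, at 397, 512 and 164 CPM, with 21.8% of its counts from 1 cell. Of 12 measured clock genes 1 was lower, Nr1d2 at 62.1, 14.7 and 18.6 CPM, and 1 higher, Arntl at 50.4, 103 and 120 CPM (list median 0.11). Keratinocyte RNA was also present: 8 of 29 cornified genes were higher, such as Lor at 72.6, 100 and 205 CPM. Fibroblasts do not make a cornified envelope, and the part of keratinocyte RNA in the other fibroblast values was not tested. The gate held 175 control and 162 UV plus vitamin D cells.

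In the macrophage, monocyte and dendritic cell gate 26 of 4309 genes were higher (0.603%) and 17 lower (0.395%). Of 37 measured interferon genes 5 were lower and 0 higher, with a list median of 0.00. Ifnb1, which encodes interferon beta, was at 516 CPM in control, 19.5 in UV and 195 in UV plus vitamin D, and Ifit2, one of its targets, at 521, 82.5 and 180 CPM. Rsad2, the antiviral enzyme viperin, was at 3845, 507 and 1947 CPM. UV was the lowest library for each of these genes. The chemokine gene Ccl4 was at 12427, 2573 and 4930 CPM. Egr1, an immediate early factor, was higher at 48.6, 362 and 262 CPM, Socs3, a feedback inhibitor of cytokine receptors, at 48.6, 243 and 169 CPM, and Plaur, the urokinase receptor, at 149, 534 and 423 CPM. The gate held 138 control and 93 UV plus vitamin D cells, and its make-up of macrophages, monocytes and dendritic cells was not resolved.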

How the data were processed

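Single-cell libraries of dissociated skin were made with GEXSCOPE kits (Singleron), per the labels' protocols. The authors deposited raw counts, whole numbers with genes in rows and barcodes in columns, in 1 table for each library. Per the submitters' processing notes FastQC, fastp, STAR and featureCounts were used, without stated versions, and the build named is GRCh38, which is human, although the symbols are mouse symbols; genes were therefore matched by symbol. No source used here says whether molecules or reads were counted; if reads, the intervals are too narrow. Barcodes held at least 2822 (control), 3010 (UV) and 3409 (UV plus vitamin D) counts, which shows a selection made upstream. No doublet caller was run, and doublets may remain.

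Counts were summed per library and compartment (Python 3.11.15, NumPy 2.4.6, SciPy 1.17.1, pandas 2.3.3) and scaled to CPM. Log2 ratios used CPM + 10. Folds carry exact conditional 95% intervals, shares exact binomial ones. Ratios and intervals were tested on simulated data. Genes needed 20 counts over control and UV plus vitamin D. With 1 library a group no model was fitted.

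Named genes had at least 50 counts in the higher library, an interval wholly past 1.5-fold and at most 20% of that library's counts from 1 cell. Mitochondrial, ribosomal and haemoglobin genes and unnamed models were left out. The rule took the 12 highest and 12 lowest epidermal genes, 8 and 8 of the other cells, 6 and 6 treatment-only genes, up to 4 a list, 4 and 4 a gate, and Vdr, Cyp24a1, Cdkn1a, Nr1d1 and Igfbp3. Further genes are list members or were chosen after their values were seen. The members, the 30 gene lists and the 21 marker lists were chosen with earlier results of these data known. Alternatives changed the pseudocount, count minimum, total, centring, cell weights, limits, thinning and cells included. A gene that the rule named in the hair follicle gate is not reported here.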

Additional observations from a re-analysis of the deposited data

How the results depend on the processing

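The values depended most on the pseudocount, on the keratin limit and on which cells a compartment held. With a pseudocount of 1 the epidermal counts were 345 higher and 497 lower, with 437 shared and 370 treatment-only, and those of other cells 976 higher, 2551 lower, 558 shared and 1840 treatment-only. With an epidermal limit of 2% there were 58 lower epidermal genes and 49 treatment-only ones; other cells then had 247 higher, 142 lower and 248 treatment-only genes. That limit left 17.0% of control, 23.8% of UV and 13.4% of UV plus vitamin D cells as epidermal, with UV highest instead of lowest. A limit of 0.2% gave 93.1%, 67.7% and 88.6%. Weighting the keratin ranges to control gave 67 lower epidermal genes. In other cells the lower genes numbered 1224 without rRNA, mitochondrial and haemoglobin genes, 364 with the median set to 0 and 398 with cells weighted the same. Weighting the gates to control, chosen after seeing the data, gave 254 higher, 215 lower, 257 shared and 197 treatment-only genes. At a limit of 2% Sfn turned to 0.07 and Lss to 0.13 in other cells. Of 67 named epidermal genes 25 no longer passed 1.5-fold at the 2% limit, 10 under range weighting and 5 without cells carrying other lineages' markers (4 of these are class II genes, which are among those markers); none was lost with at least 100 counts, with the median set to 0 or without the top cell of each gene. No paired analysis was possible because each group had 1 library. The lack of replicates limits these comparisons, and the results also moved with depth. With cells thinned to 2500 counts 187 epidermal genes were higher and 88 lower, instead of 126 and 101. In other cells the numbers were 567 and 494, instead of 418 and 683. In gates depth is a further limit.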
